A study of Mus musculus with 24 samples.

Results

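The contrast described here asks which effects of pressure overload on the mouse left ventricle faded and which persisted between day 7 and day 21. It was computed for each gene as the log2 fold change of transverse aortic constriction (TAC) over sham at day 21 minus that at day 7. TAC narrows the aorta and so raises the pressure against which the left ventricle pumps, and the sham operation serves as its control. The 4 groups were hearts 7 days after sham, 7 days after TAC, 21 days after sham and 21 days after TAC, with 3 libraries each, which makes 12 of the 24 libraries of a series that also holds days 2 and 4. All genes were taken, and 13816 of the 24015 in the count table passed the filter on low counts. The labels give no strain, sex or age of the mice, and they name no allele, transgene or drug. Nor do they state that the 3 replicates came from different animals. If they did not, a p-value here covers only the spread among the libraries sequenced.

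Pressure overload drives heart muscle cells to enlarge and to return to a fetal pattern of expression, with natriuretic peptides and the slow myosin heavy chain raised and genes of fatty acid oxidation lowered. Fibroblasts and other cells between the muscle cells divide early and then lay down collagen. Established hypertrophy is the later state, in which the wall is thick and the load continues.

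Levels are counts per 1000000 reads (CPM) scaled between libraries with TMM (the trimmed mean of M-values), and effects are log2 fold changes ± standard error (SE). Genes were tested two-sided with edgeR (quasi-likelihood), p-values were adjusted by the Benjamini-Hochberg method across the 13816 genes, and "called" means an adjusted p under 0.05. Depth of the 12 libraries was 10.7 to 14.9 M counted reads (M, 1000000 reads). In bulk tissue, fewer cells of a type and less RNA per cell cannot be told apart. The strand of the libraries is not stated, so reads of antisense transcripts and of near-identical gene copies may be counted under some symbols.

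Several libraries stood apart. Regressed across genes on the mean TAC effect of days 2 and 4, the TAC libraries of day 7 had slopes of 1.18, 0.58 and 1.02 in replicates 1 to 3, and those of day 21 had 0.50, 0.096 and 0.77. The sham libraries lay between -0.128 and 0.090, so replicate 2 of the day-21 TAC group stood close to the sham hearts. Myl7, the atrial myosin light chain, was at 60.6 CPM in TAC replicate 1 of day 7 and at 70.2 CPM in sham replicate 2 of day 21, against 0 to 9.47 CPM in the other 10 libraries. The summed level of the 11 listed atrial genes that passed the filter was 1115.5 CPM in that TAC library and 850.4 CPM in that sham library. The other sham libraries of these days held 568.5 to 621.1 CPM and the other TAC libraries 651.7 to 907.8 CPM. The part of atrial tissue in the results was not tested beyond leaving such libraries out and fitting Myl7 as a covariate. Results that rest on these libraries are given with and without them.

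Of the 13816 genes, 9 were called in the difference between the days, or 0.0651%. The TAC effect was higher at day 21 for Lrrc17, Cxcl14, Lmcd1 and Rab3ip (0.029% of genes), and lower for Mastl, Mest, Hist3h2a, Adam19 and Arhgap18 (0.0362%). At an unadjusted p under 0.05 there were 1574 genes, or 11.4%, of which 717 had a higher and 857 a lower effect at day 21. DESeq2 called 72 genes, among them all 9, and limma voom called 3. With only the 12 libraries of both days in the fit, 45 genes were called, 39 of them lower, and 6 were among the 9.

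Within each day, TAC against sham called 3201 genes at day 7 (23.2%) and 151 at day 21 (1.09%). Those of day 21 split into 86 higher (0.622%) and 65 lower (0.47%). The 89 genes called at both days had the same direction, and made up 2.78% of the day-7 genes and 58.9% of the day-21 genes. Of the day-7 genes, 2834 had the same sign at day 21 and 3056 had a smaller effect there. Their median effect was 0.63 at day 7 and 0.27 at day 21 in the day-7 direction, on the log2 scale. In the reverse direction, 113 of the 151 genes picked at day 21 were smaller at day 7, with medians of 0.71 at day 21 and 0.54 at day 7. Over all genes the median absolute effect was 0.25 at day 7 and 0.17 at day 21. The SE of the 2 effects had medians of 0.158 and 0.158, and that of the difference 0.223, so that for a typical gene the 95% interval of the difference reached 0.46 to either side. Of the day-7 genes, 967 had an unadjusted p under 0.05 for a difference toward 0 and 1 for a difference away from it. The day-7 libraries that picked these genes also enter the difference. That choice alone moves the difference toward 0, so the split is no measure of fading. Across genes the 2 effects had a Pearson correlation of 0.60 and a Spearman correlation of 0.57, which describes these libraries, since genes are not independent replicates. The 3 TAC libraries did not overlap the 3 sham libraries in 39.9% of all genes at day 7 and in 22.4% at day 21. A lack of overlap is thus common, and it is given below as a description.

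**Figure D1:**
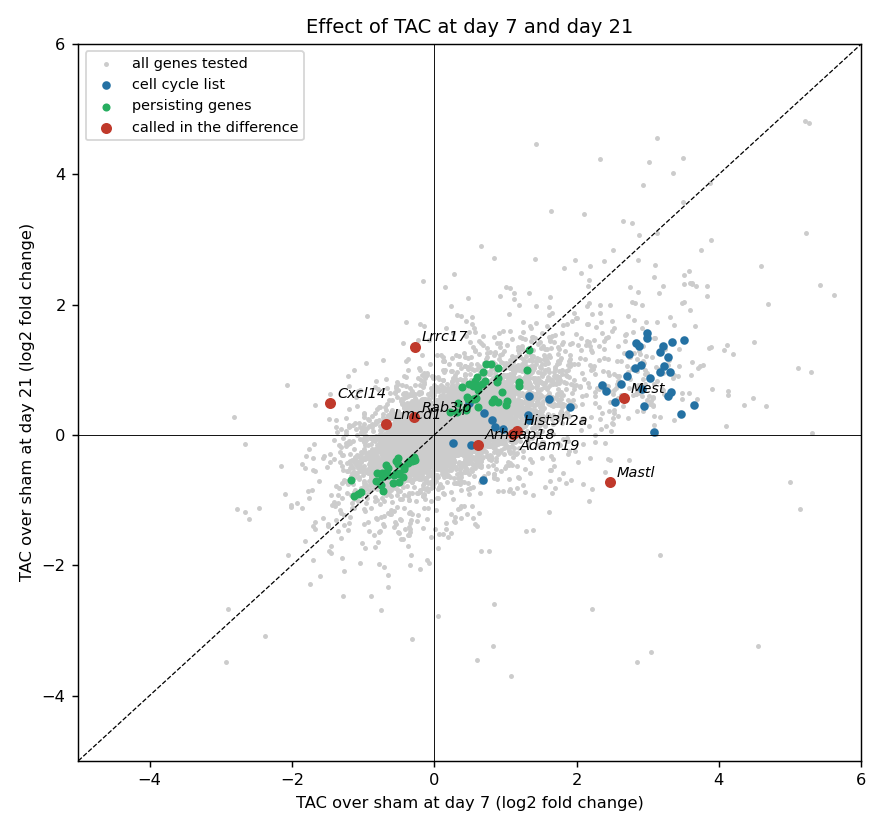
Log2 fold change of TAC over sham at day 21 (vertical) against day 7 (horizontal) for the genes tested, with the 9 genes called in the difference named and 4 genes outside the plotted range. Most genes called at day 7 lie nearer to 0 on the vertical axis, with medians of 0.63 at day 7 and 0.27 at day 21.

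Mest, Mastl and Hist3h2a were higher after TAC at day 7 and near the sham level at day 21. Mest, an imprinted gene expressed from the paternal allele in growing mesodermal tissue, was at 9.16, 9.94 and 7.45 CPM in the sham and 65.6, 39.0 and 63.6 CPM in the TAC libraries of day 7. At day 21 it was at 10.3, 15.1 and 10.9 CPM in sham and 21.2, 14.9 and 17.2 CPM in TAC. All TAC libraries of day 7 lay above every other library, and the groups of day 21 overlapped. The effect was 2.66 at day 7 and 0.56 (adjusted p = 0.256) at day 21, a difference of -2.10 ± 0.36 (adjusted p = 0.0308). Mastl, the Greatwall kinase that keeps cells in mitosis, was a low gene, at 0.976 to 1.5 CPM in sham and 5.62, 5.85 and 8.17 CPM in TAC at day 7. At day 21 the sham libraries held 1.13 to 2.68 CPM and the TAC libraries 0.698 to 1.51 CPM, so that the groups overlapped there and were apart at day 7. Its effect went from 2.47 to -0.72 (adjusted p = 0.382 at day 21), a difference of -3.19 ± 0.57 (adjusted p = 0.0313).

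Hist3h2a, which encodes a histone H2A, was at 13.8 to 15.7 CPM in sham and 29.4, 32.1 and 38.2 CPM in TAC at day 7. Its levels at day 21 were 14.2, 18.2 and 14.6 CPM in sham and 16.6, 17.2 and 15.4 CPM in TAC. Only the TAC libraries of day 7 stood apart. The effect of 1.16 at day 7 was 0.07 (adjusted p = 0.845) at day 21, and the difference was -1.09 ± 0.20 (adjusted p = 0.0313). From day 7 to day 21 the TAC hearts fell by 1.66, 2.53 and 1.02 on the log2 scale in Mest, Mastl and Hist3h2a. Between the sham groups the log2 values were 0.44, 0.66 and 0.07, not called in any of the 3, although the 3 sham libraries of day 21 lay above those of day 7 in Mest.

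In Adam19 and Arhgap18, called as well, the sham hearts of day 21 also stood above those of day 7, by more than the TAC hearts differed. Adam19, a membrane metalloprotease of the ADAM family, was at 22.4, 22.0 and 18.9 CPM in sham and 52.6, 40.8 and 42.3 CPM in TAC at day 7. By day 21 it stood at 44.1, 37.1 and 47.8 CPM in sham and 43.7, 40.0 and 46.8 CPM in TAC. The 3 sham libraries of day 7 lay below the other 9, which overlapped. Sham hearts rose by 1.03 ± 0.14 from day 7 to day 21 (adjusted p = 0.00154), while the change of the TAC hearts was -0.06 (adjusted p = 0.86). The difference was -1.09 ± 0.19 (adjusted p = 0.0308), made of an effect of 1.10 at day 7 and 0.01 at day 21. Arhgap18 was at 28.7 to 33.0 CPM in sham and 45.1 to 51.1 CPM in TAC at day 7, and at 40.2 to 44.0 CPM in sham and 35.7 to 39.9 CPM in TAC at day 21. TAC was the higher group at day 7 and the lower one at day 21, without overlap on either day. Such a lack of overlap was found in 39.9% of all genes at day 7 and 22.4% at day 21. The effect of Arhgap18 was 0.61 at day 7 (adjusted p = 0.000225) and -0.15 at day 21, the latter not called (adjusted p = 0.415). Its difference was -0.76 ± 0.13 (adjusted p = 0.0308), with changes of 0.45 in sham (adjusted p = 0.0908) and -0.31 in TAC (adjusted p = 0.0769), neither of them called.

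**Figure D2:**
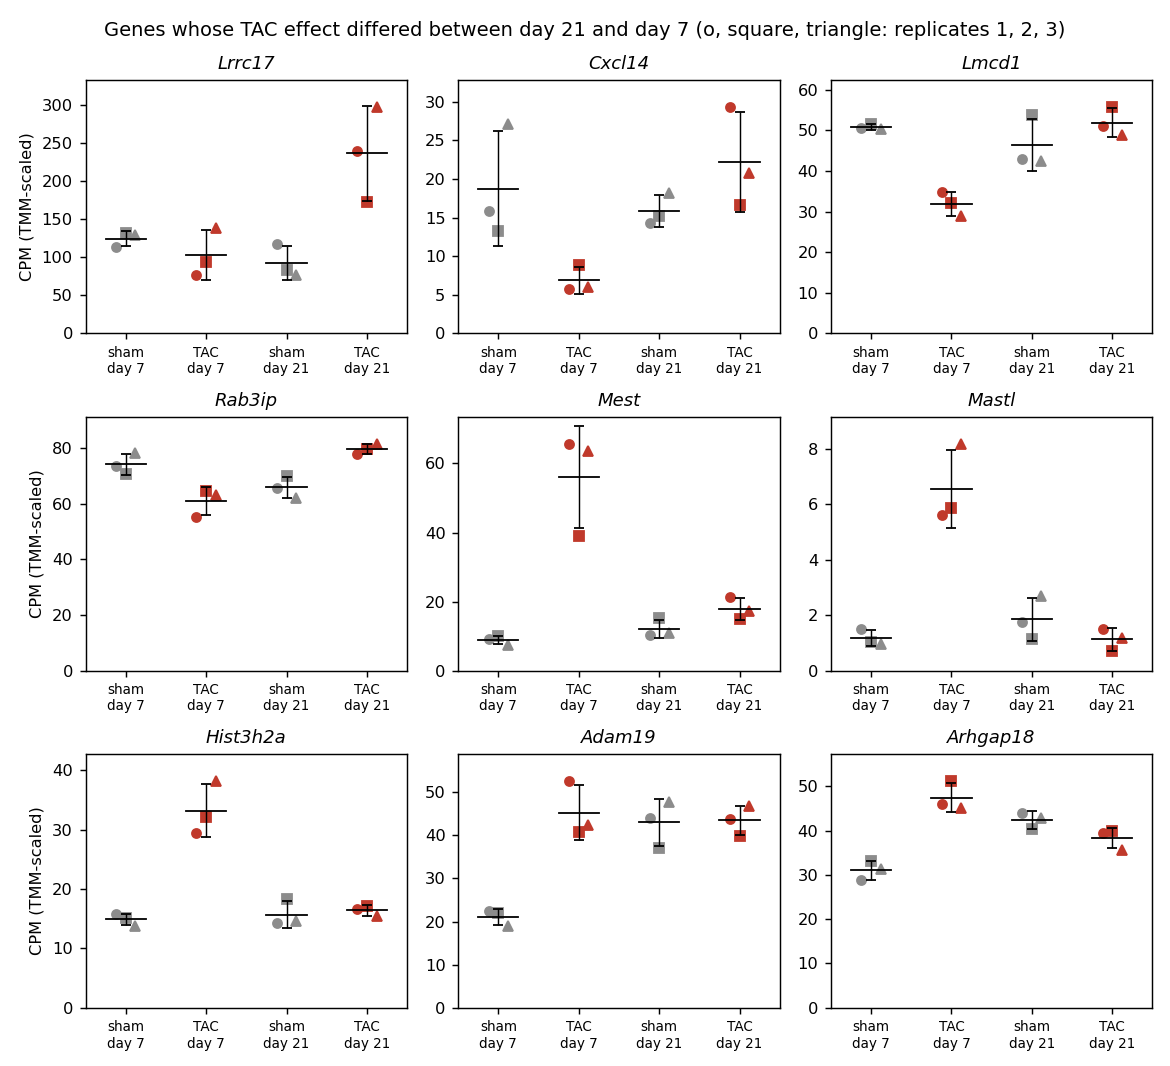
CPM of the 9 genes called in the difference, 1 point per library, in the sham (grey) and TAC (red) groups of days 7 and 21, with the mean and SD of n = 3. In Mest, Mastl and Hist3h2a the 3 TAC libraries of day 7 stand above the rest, and in Adam19 the 3 sham libraries of day 7 stand below the rest.

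Lrrc17 was the one gene of the 9 whose TAC effect was called at day 21 and not at day 7. It encodes a secreted leucine-rich repeat protein and stood in the list of activated fibroblasts. At day 7 it was at 114, 132 and 129 CPM in sham and 76.3, 93.9 and 139 CPM in TAC, and the groups overlapped. By day 21 it stood at 118, 83.0 and 77.1 CPM in sham and 239.9, 173 and 298 CPM in TAC, where every TAC library lay above every sham library of either day. The effect was -0.28 ± 0.195 at day 7 (adjusted p = 0.313) and 1.36 ± 0.198 at day 21 (adjusted p = 0.00403). The difference was 1.63 ± 0.28 (adjusted p = 0.0308; 95% interval 1.05 to 2.21), and TAC hearts rose by 1.20 between the days (adjusted p = 0.00344).

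Cxcl14, Lmcd1 and Rab3ip were lower after TAC at day 7 and back at or above the sham level at day 21. Cxcl14, a chemokine, was at 15.8, 13.3 and 27.2 CPM in sham and 5.74, 8.82 and 6.01 CPM in TAC at day 7, then at 14.3, 15.1 and 18.1 CPM in sham and 29.3, 16.6 and 20.7 CPM in TAC at day 21. The TAC libraries of day 7 were the lowest of all 12. Its difference was 1.94 ± 0.35 (adjusted p = 0.0313), from -1.46 at day 7 to 0.48 (adjusted p = 0.305) at day 21. Lmcd1, a LIM-domain protein of heart and skeletal muscle, was at 50.3 to 51.6 CPM in sham and 28.9 to 34.8 CPM in TAC at day 7. By day 21 it stood at 42.4 to 53.8 CPM in sham and 48.9 to 55.7 CPM in TAC, with overlap. The difference was 0.83 ± 0.15 (adjusted p = 0.0308). Rab3ip, an exchange factor that activates Rab8, was at 70.7 to 78.1 CPM in sham and 55.2 to 64.4 CPM in TAC at day 7, and at 62.1 to 69.9 CPM in sham and 77.7 to 81.4 CPM in TAC at day 21. The order of the groups was reversed between the days. They did not overlap on either day, as in 39.9% of all genes at day 7 and 22.4% at day 21. The effect was -0.28 at day 7 (adjusted p = 0.0107) and 0.28 at day 21 (adjusted p = 0.0697), and the difference was 0.56 ± 0.10 (adjusted p = 0.0400).

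The sign of these 9 differences held under the 23 alternatives, but whether they were called did not. Mastl, the lowest gene, ranged in size from -3.54 to -1.40, the latter on log2(RPKM + 0.5), and Cxcl14 from 1.58 to 2.31. Each gene was called in 5 (Rab3ip) to 12 (Arhgap18, Lmcd1 and Lrrc17) of them. With 1 library left out, the number of genes called was 0 without any of the 3 sham libraries of day 7, without sham replicate 3 of day 21, or without TAC replicate 1 or 3 of day 21. These edgeR fits had 1278 to 2126 genes at an unadjusted p under 0.05. It was 1 without TAC replicate 3 of day 7 or sham replicate 1 of day 21, 4 without sham or TAC replicate 2 of day 21, 6 without TAC replicate 1 and 17 without TAC replicate 2 of day 7. Without the libraries over 30 CPM of Myl7, Lmcd1 alone was called, with a difference of 1.01 (adjusted p = 0.0154). The other 8 then had differences of 0.53 in Rab3ip, 1.37 in Lrrc17, 1.79 in Cxcl14, -0.82 in Arhgap18, -1.06 in Adam19, -1.06 in Hist3h2a, -1.80 in Mest and -3.54 in Mastl, with adjusted p from 0.165 to 0.381. With Myl7 as a covariate, edgeR called 0 genes in the difference. The 9 genes then had adjusted p from 0.053 in Arhgap18 to 0.161 in Rab3ip, and 1106 genes had an unadjusted p under 0.05.

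Genes of dividing cells had the largest drop of any list. Of the 42 cell cycle genes, all tested, 39 were called higher at day 7 (13.1% of all genes were) and none was called at day 21 by edgeR, where 11 were higher at an unadjusted p under 0.05 and DESeq2 called 2. The list's median effect was 2.83 at day 7 and 0.67 at day 21. The median difference was -1.76, against -0.01 over all genes, with 41 of the 42 below 0. None of the 42 passed edgeR's adjusted test of the difference, the unadjusted p was under 0.05 in 31, all lower, DESeq2 called 7 lower, voom called none and the fit with only the 12 libraries called 10 lower. In the direct comparison of TAC hearts at day 21 with day 7, 31 of the 42 fell, where 2.06% of all genes did, and their median change was -1.94. The list's median change in sham hearts was -0.09. Over sham of the same day, the mean log2 level of the list was 2.07, 2.14 and 2.62 in the TAC libraries of day 7 and 0.77, 0.54 and 0.61 in those of day 21. All TAC libraries of day 7 lay above all of day 21, replicate 2 of either day included, and the sham libraries lay between -0.31 and 0.23. The median difference was -1.74 without TAC replicate 2 of day 21 and -1.77 without the libraries over 30 CPM of Myl7, and the falls in TAC hearts then numbered 16 and 20.

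Mki67, a nuclear protein of cycling cells, was at 40.4, 60.2 and 25.6 CPM in sham and 221.7, 290.1 and 436.9 CPM in TAC at day 7. Its levels at day 21 were 37.2, 30.8 and 29.8 CPM in sham and 74.4, 68.7 and 63.8 CPM in TAC. TAC lay above sham on both days, and every TAC library of day 21 lay below every TAC library of day 7. The difference was -1.83 ± 0.56 (unadjusted p = 0.00384, adjusted p = 0.23), and the TAC hearts fell by 2.20 (adjusted p = 0.00618). Kif23, a kinesin of cytokinesis, was at 1.51 to 3.20 CPM in sham and 15.2 to 26.01 CPM in TAC at day 7, then at 2.07 to 3.48 CPM in sham and 2.44 to 4.01 CPM in TAC. Its difference of -3.04 ± 0.64 (adjusted p = 0.0969) was close to the threshold. Top2a, the topoisomerase that untangles replicated DNA, was at 48.2 to 78.9 CPM in TAC hearts of day 7 and 8.98 to 15.2 CPM in those of day 21, against 3.73 to 8.65 CPM in all sham libraries of both days. Its effect of 1.06 ± 0.49 at day 21 was not called (adjusted p = 0.267). Cenpe, a kinesin of the kinetochore, and Ect2, an exchange factor of cytokinesis, fell by 2.43 and 2.62 in TAC hearts (adjusted p = 0.00457 and 0.00344).

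The promoters of 3 genes of dividing cells are shown: Kif23 and Cenpe, because 31 members of the list fell together in TAC hearts, and Mastl, which is not in the list and was called in the difference. The sequences are the 250 bases before and the first 50 of the gene, 5′ to 3′ on the gene's strand, from RefSeq on GRCm38.p6. Capitals mark CCAAT, its reverse complement ATTGG, and TTTGAA or TTTAAA on either strand, the letters of the CCAAT box and of the cell cycle homology region. Mastl lies at chr2:23155975-23156274 (minus strand), Kif23 at chr9:61946750-61947049 (minus strand) and Cenpe at chr3:135212313-135212612 (plus strand).
Mastl: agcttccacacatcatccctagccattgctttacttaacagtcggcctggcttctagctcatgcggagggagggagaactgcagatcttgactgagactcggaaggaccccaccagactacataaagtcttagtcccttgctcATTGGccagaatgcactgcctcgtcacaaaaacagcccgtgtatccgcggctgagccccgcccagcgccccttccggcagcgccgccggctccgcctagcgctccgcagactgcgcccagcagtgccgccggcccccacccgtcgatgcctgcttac
Kif23: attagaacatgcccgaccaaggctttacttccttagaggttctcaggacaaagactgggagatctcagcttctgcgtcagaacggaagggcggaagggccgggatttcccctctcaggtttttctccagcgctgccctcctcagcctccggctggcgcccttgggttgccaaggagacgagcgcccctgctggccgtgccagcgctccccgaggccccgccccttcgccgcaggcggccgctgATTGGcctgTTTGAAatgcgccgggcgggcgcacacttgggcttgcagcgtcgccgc
Cenpe: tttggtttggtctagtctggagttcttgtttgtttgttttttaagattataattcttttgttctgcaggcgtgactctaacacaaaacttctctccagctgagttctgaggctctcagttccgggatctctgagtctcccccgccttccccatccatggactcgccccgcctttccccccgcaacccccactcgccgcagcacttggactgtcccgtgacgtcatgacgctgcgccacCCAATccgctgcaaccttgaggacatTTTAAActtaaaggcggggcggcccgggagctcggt
Mastl held CCAAT only, and Kif23 and Cenpe held both kinds. Of the 42 list genes, 33 matched the table, with 35 promoters. CCAAT was in 29 of these 35 (82.9%) and in 37.4% of all 32851 promoters. TTTGAA or TTTAAA was in 26 of the 35 (74.3%) and in 27.6% of all, and TTTAAA reads the same on both strands. A match is a description of the letters in the window, not a site in use.

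Histone genes, which dividing cells express while they copy their DNA, followed the cell cycle list. Of 68 genes with a Hist symbol, a group chosen after their values were seen, 50 passed the filter. Of these, 44 were called higher at day 7 and 1 lower, Hist2h2be, against 13.1% and 10% of all genes. The medians of the 50 were 2.54 at day 7 and 0.66 at day 21. At day 21 edgeR and DESeq2 called 0 of them, and the unadjusted p was under 0.05 in 8 that were higher and 1 that was lower. The median difference was -1.65, Hist3h2a alone was called, and 33 were lower at an unadjusted p under 0.05. In TAC hearts 33 of the 50 fell from day 7 to day 21, with a median of -1.96. Most histone transcripts lack a poly(A) tail, and many copies of the family are near-identical, so that their counts may be split among copies.

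Counted over all genes, the TAC hearts differed between the days in 343 genes (2.48%), 58 higher (0.42%) and 285 lower (2.06%) at day 21. Of the 285 lower genes, 256 had been called higher than sham at day 7, 1 lower, and 28 were not called. Their median change was -1.62 in TAC hearts and -0.08 in sham hearts. Of the 58 higher genes, 32 had been called lower at day 7 and 26 were not called, with a median change of 0.52 in TAC and 0.03 in sham hearts. The TAC libraries of day 7 enter both comparisons with opposite sign, so these splits were favoured in advance. With 1 library left out, the number of genes called between the days in TAC hearts was 54 to 609. Outside the cell cycle, Stmn1, which destabilises microtubules, and Vim, the intermediate filament of mesenchymal cells, fell by 1.29 (adjusted p = 0.00564) and 0.96 (adjusted p = 0.0458). Atf3, an immediate early transcription factor, was at 4.33 to 8.92 CPM in TAC hearts of day 7 and 1.60 to 2.95 CPM in those of day 21, against 2.57 to 4.15 CPM in sham, and fell by 1.70 in TAC hearts (adjusted p = 0.0101). Its difference of -2.01 ± 0.50 was not called by edgeR (adjusted p = 0.133) but was by DESeq2 (adjusted p = 0.0276). Of the 25 immediate early genes, 4 were called higher at day 7, a share near the 13.1% of all genes, and 0 at day 21 by edgeR, where DESeq2 called 0 as well and 2 were higher and 6 lower at an unadjusted p under 0.05. The median difference was -0.43, and 7 were lower and 0 higher at an unadjusted p under 0.05.

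**Figure D3:**
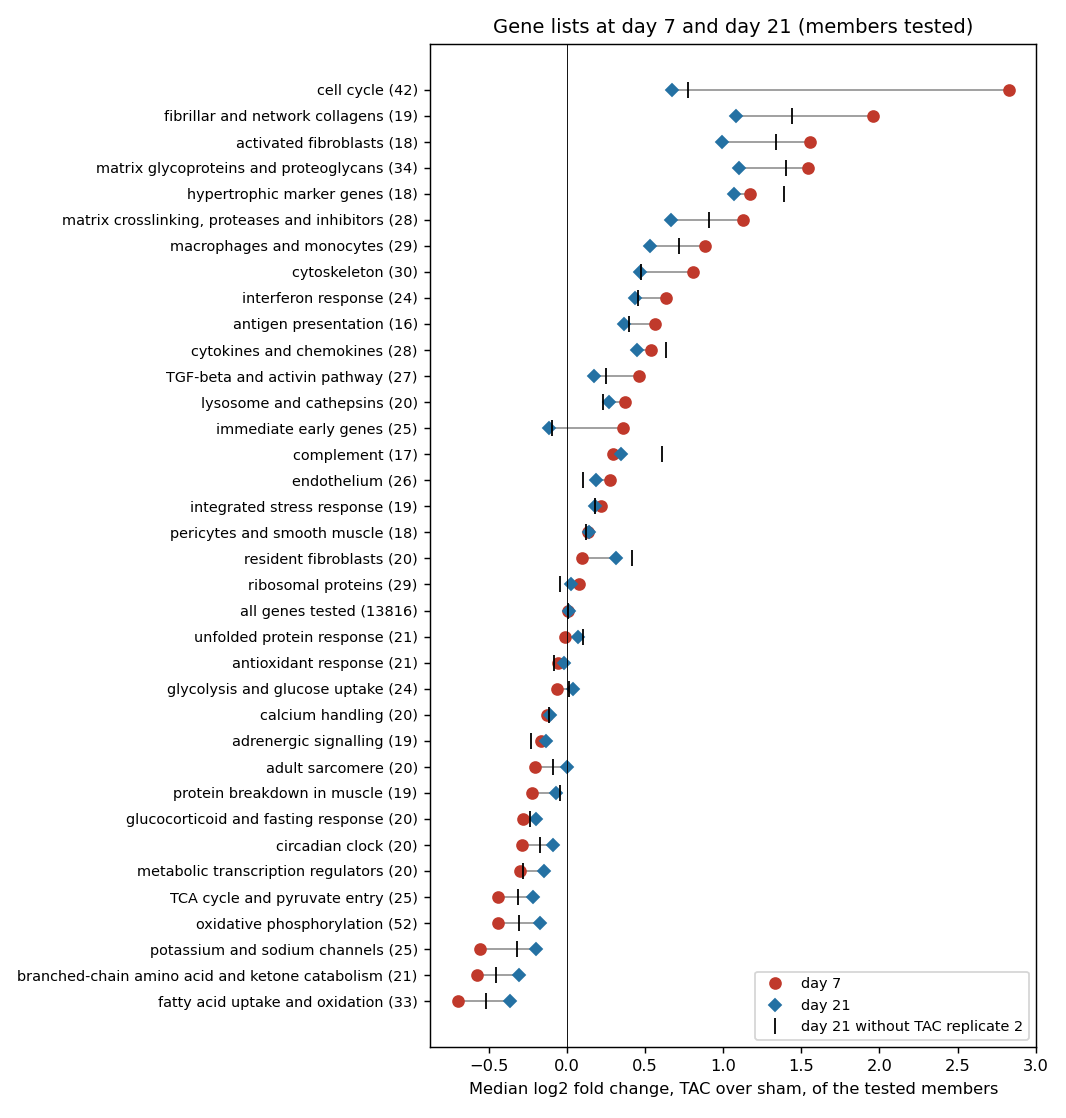
Median log2 effect of TAC at day 7 and day 21 in the gene lists, with short vertical lines for day 21 without TAC replicate 2 and the number of members tested in parentheses. The cell cycle list drops from 2.83 to 0.67, while the hypertrophic marker genes stand at 1.17 and 1.07.

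Collagen and matrix genes were higher as lists at both days, except in TAC replicate 2 of day 21. The data do not fix how much of that effect was lost. All 19 collagens were called higher at day 7 and 3 at day 21, where 13.1% and 0.622% of all genes were, with medians of 1.96 and 1.08. At an unadjusted p under 0.05, 17 of the 19 were higher at day 21, against 9.25% of all genes. The median difference was -0.86, all 19 were below 0, and 2 of the 19 had an unadjusted p under 0.05, against 11.4% of all genes in either direction. The median difference was -0.53 without TAC replicate 2 of day 21, -1.28 without TAC replicate 2 of day 7 and -0.10 without the libraries over 30 CPM of Myl7. Without TAC replicate 2 of day 21, 10 of the 19 were called higher at day 21. Over sham, the mean log2 level of the collagens was 2.80, 0.69 and 1.76 in the TAC libraries of day 7 and 1.31, -0.12 and 1.75 in those of day 21. The days thus overlapped, unlike in the cell cycle list, and replicate 2 was the lowest of both days.

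Col1a1, the main fibrillar collagen chain, was at 2147, 319.5 and 825.9 CPM in TAC at day 7 and at 529, 194 and 831 CPM at day 21, against 156 to 229 CPM in all sham libraries. TAC replicate 2 of day 21 lay within the sham range. The difference was -0.93 ± 0.74, with a 95% interval from -2.47 to 0.61. Its sign was reversed to 0.01 without TAC replicate 1 of day 7 and to 0.18 without the libraries over 30 CPM of Myl7. Col3a1, another fibrillar collagen, had a difference of -1.06 ± 0.65, and Postn, a matrix protein of activated fibroblasts, one of -1.31 ± 0.85. Ctgf, a matricellular growth regulator, had -0.96 ± 0.65, and Timp1, an inhibitor of matrix proteases, 0.62 ± 1.47. None of these was called, with adjusted p from 0.55 to 0.909. The alternatives moved them from -1.47 to -0.21 in Col3a1, -1.92 to -0.33 in Postn, -1.69 to -0.36 in Ctgf and 0.067 to 1.56 in Timp1. Of all genes, 13.1% were called higher at day 7 and 0.622% at day 21. In the list of matrix glycoproteins and proteoglycans, 22 of 34 were called higher at day 7 and 2 at day 21, where 18 had an unadjusted p under 0.05. In that of activated fibroblasts it was 13 and 2 of 18, with 9 at an unadjusted p under 0.05 at day 21 and Lrrc17 called in the difference. Over sham, the mean log2 level in the TAC libraries of day 21 was 0.98, -0.40 and 1.77 in the matrix list. In activated fibroblasts that level was 1.01, -0.15 and 1.86. The sham libraries of day 21 lay between -0.20 and 0.27 in the matrix list and between -0.15 and 0.10 in activated fibroblasts. Macrophage genes were called higher in 18 of 29 at day 7 and in 0 at day 21, with a median difference of -0.36. For these macrophage genes at day 21, an unadjusted p was under 0.05 in 12 that were higher, DESeq2 passed 1 and edgeR without TAC replicate 2 of day 21 called 2.

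**Figure D4:**
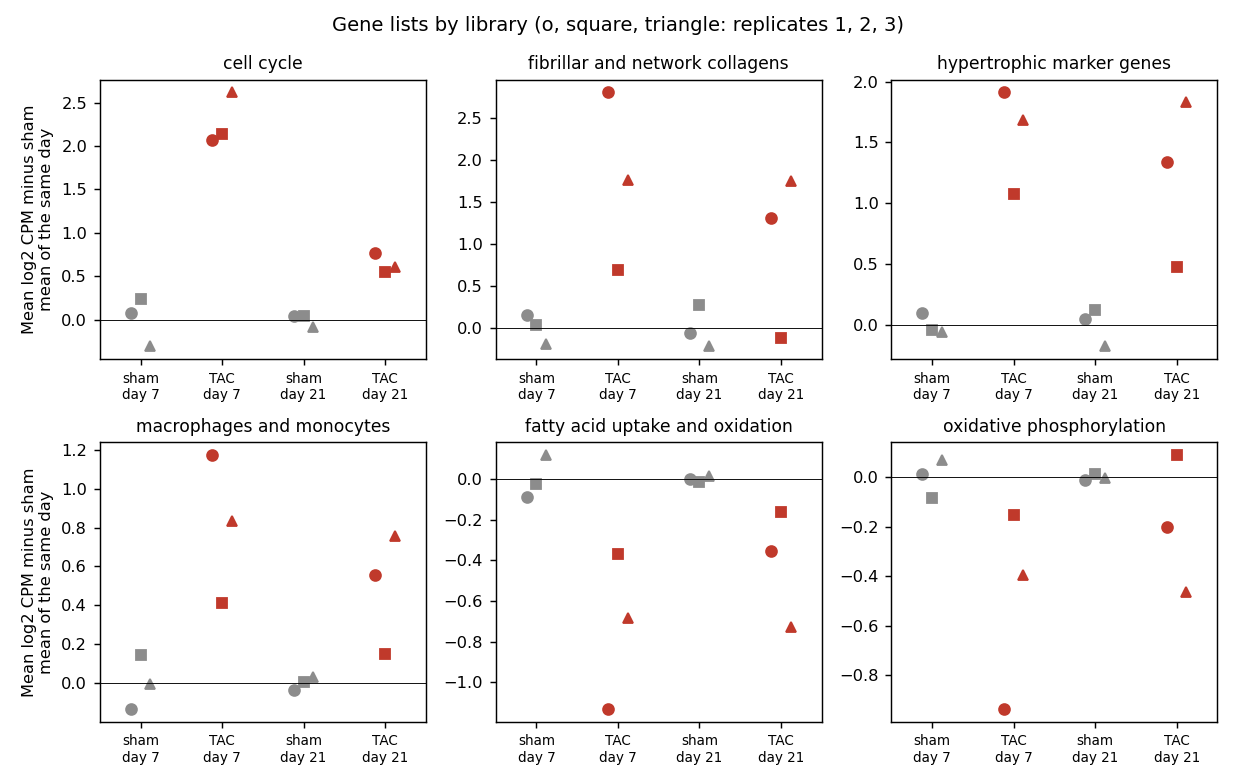
Mean log2 level over the sham hearts of the same day for gene lists, 1 point per library. In the cell cycle list the TAC libraries of day 7 (2.07 to 2.62) lie apart from those of day 21 (0.54 to 0.77), and in the collagens the 2 days overlap.

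Hypertrophic marker genes had close median effects at both days. Of 18, 11 were called higher at day 7 and 4 at day 21, where 13.1% and 0.622% of all genes were. At an unadjusted p under 0.05, 12 were higher at day 21, against 9.25% of all genes. The medians were 1.17 and 1.07, and the median difference was 0.08. Without TAC replicate 2 of day 21, 9 of the 18 were called at day 21, with a median of 1.39. Nppa, which encodes atrial natriuretic peptide, was at 118 to 172 CPM in sham and 2760.2, 853 and 1263 CPM in TAC at day 7. At day 21 it was at 113 to 269.8 CPM in sham and 2111, 678 and 3409 CPM in TAC, without overlap on either day. The effects were 3.5 and 3.58, both called, and the difference was 0.08 ± 0.66 with a 95% interval from -1.30 to 1.46, so a change of more than 2-fold between the days cannot be told from none. Its sign was reversed in 6 of the 12 fits that leave out 1 library. Over the 23 alternatives the difference of Nppa ranged from -0.49 to 1.16 and was not called in any. Acta1, the skeletal alpha-actin, had effects of 2.39 and 2.67 (difference 0.28 ± 0.58) and Ankrd1, a stress-responsive nuclear and sarcomeric protein, 1.23 and 1.32 (0.08 ± 0.45). Nppb, the B-type natriuretic peptide, had 2.27 and 1.65 (-0.62 ± 0.50). Myh7, the slow myosin heavy chain, had 3.15 at day 7 and 2.18 at day 21, the latter not called (adjusted p = 0.108), and a difference of -0.97 ± 0.92. At day 21 its TAC libraries held 1610, 720 and 5786 CPM and its sham libraries 545, 854 and 395 CPM, so that the groups overlapped. Myh7 had a difference of 0.28 without the libraries over 30 CPM of Myl7, and of -2.19 without TAC replicate 3 of day 21.

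Energy genes were lower at day 7 and lay closer to the sham level at day 21. Of 33 genes of fatty acid uptake and oxidation, 31 were called lower at day 7, where 10% of all genes were, and 1 at day 21, with medians of -0.70 and -0.37. At an unadjusted p under 0.05, 17 of the 33 were lower at day 21, against 8.12% of all genes. The median difference was 0.31 and 32 of the 33 lay above 0. An unadjusted p for the difference was under 0.05 in 3 of the 33, against 11.4% of all genes in either direction. Of 52 genes of oxidative phosphorylation, 23 were called lower at day 7 and 1 at day 21 (8 at an unadjusted p under 0.05), with medians of -0.44 and -0.17 and a median difference of 0.26. Both differences shrank without TAC replicate 2 of day 21, to 0.16 and 0.11, and without the libraries over 30 CPM of Myl7, to 0.11 and 0.06. Without the latter libraries 2 and 1 of the genes were called lower at day 7. Cox7a1, a subunit of cytochrome c oxidase, was at 1613 to 1945 CPM in sham and 369, 1179 and 755 CPM in TAC at day 7, and at 1300 to 1512 CPM in sham and 1134, 1943 and 887 CPM in TAC at day 21. The groups overlapped at day 21 only. Its difference was 1.06 ± 0.46 (adjusted p = 0.39). Oxct1, an enzyme of ketone body use, was at 704 to 901 CPM in TAC at day 7 and 958 to 1054 CPM at day 21. Its sham libraries held 1253 to 1313 CPM at day 7 and 1069.7 to 1109.8 CPM at day 21. TAC lay below sham on both days, and the difference was 0.56 ± 0.18 (unadjusted p = 0.00465, adjusted p = 0.233). Kcnv2, a modifier subunit of potassium channels, had effects of -2.61 at day 7 and -1.29 (adjusted p = 0.078) at day 21, with a difference of 1.32 ± 0.52 (adjusted p = 0.335).

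Of all genes, 13.1% were called higher at day 7 and 0.622% at day 21, and 10% and 0.47% were called lower. At day 21, 9.25% were higher and 8.12% lower at an unadjusted p under 0.05. Among the remaining lists, genes of the interferon response were called higher in 12 of 24 at day 7 and 2 at day 21 (12 at an unadjusted p under 0.05), with medians of 0.64 and 0.43. In TAC hearts 4 of them fell between the days, while the list's median change was -0.44 in TAC and -0.34 in sham hearts. Ifit3, an antiviral protein, was at 7.58 to 10.4 CPM in sham and 10.1 to 20.1 CPM in TAC at day 7, and at 4.67 to 5.68 CPM in sham and 6.63 to 9.28 CPM in TAC at day 21. The groups overlapped at day 7 and not at day 21, and the difference was -0.18 ± 0.34. Of 30 cytoskeletal genes, 19 were called higher at day 7 and 1 at day 21, where 14 had an unadjusted p under 0.05, and the median difference was -0.28. Of 21 genes of branched-chain amino acid and ketone catabolism, 17 were called lower at day 7 and 1 higher at day 21, with medians of -0.58 and -0.31, and at an unadjusted p under 0.05 13 were lower at day 21. Markers of the epicardium passed the filter in 5 of 11, and 4 were called higher at day 7. Their summed level was 20.8 to 24.5 CPM in sham hearts, 35.8 to 47.0 CPM in TAC at day 7 and 26.8 to 30.8 CPM in TAC at day 21, and their part in the results was not tested.

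By the definition used here, a persisting gene was called at both days in the same direction and had a 95% interval of the difference within 1 on the log2 scale to either side. There were 69, of which 36 were higher and 33 lower after TAC. Ackr4, a scavenging chemokine receptor, had effects of 1.33 and 1.30 and a difference of -0.03 ± 0.41. Col4a2, a chain of basement membrane collagen, was at 402 to 472 CPM in sham and 889 to 1069.99 CPM in TAC at day 7, and at 493 to 566 CPM in sham and 864 to 981 CPM in TAC at day 21. Every TAC library lay above every sham library of both days, replicate 2 included, and the effects were 1.19 and 0.82. Bst2, an interferon-induced membrane protein, had 0.90 and 0.87, and Pi16, a peptidase inhibitor of cardiac fibroblasts and muscle, 0.90 and 1.02. Ppp1r3c, which targets a phosphatase to glycogen, had 0.88 and 0.82.

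Among the persisting genes lower after TAC, Il15, a cytokine, was at 18.6, 20.5 and 21.8 CPM in sham and 8.30, 10.8 and 8.74 CPM in TAC at day 7. At day 21 it was at 21.6, 21.9 and 20.8 CPM in sham and 12.5, 12.3 and 9.06 CPM in TAC, with every TAC library below every sham library. Its effects were -1.13 and -0.93 and the difference 0.20 ± 0.32. Slc27a1, a fatty acid transporter, had -1.07 and -0.91 (difference 0.16 ± 0.28), and Nadk2, the mitochondrial NAD kinase, -0.75 and -0.77 (-0.01 ± 0.25). Adra1b, an alpha-1 adrenergic receptor, had -0.72 and -0.85, and Synj2, a phosphoinositide phosphatase, -0.82 and -0.71. The number of persisting genes followed the calls at day 21. Leaving out 1 library gave 2 to 260 persisting genes and 7 to 575 genes called at day 21, the latter with 575 without TAC replicate 2 of day 21. Without the libraries over 30 CPM of Myl7 there was 1 persisting gene and 3 genes were called at day 21.

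**Figure D5:**
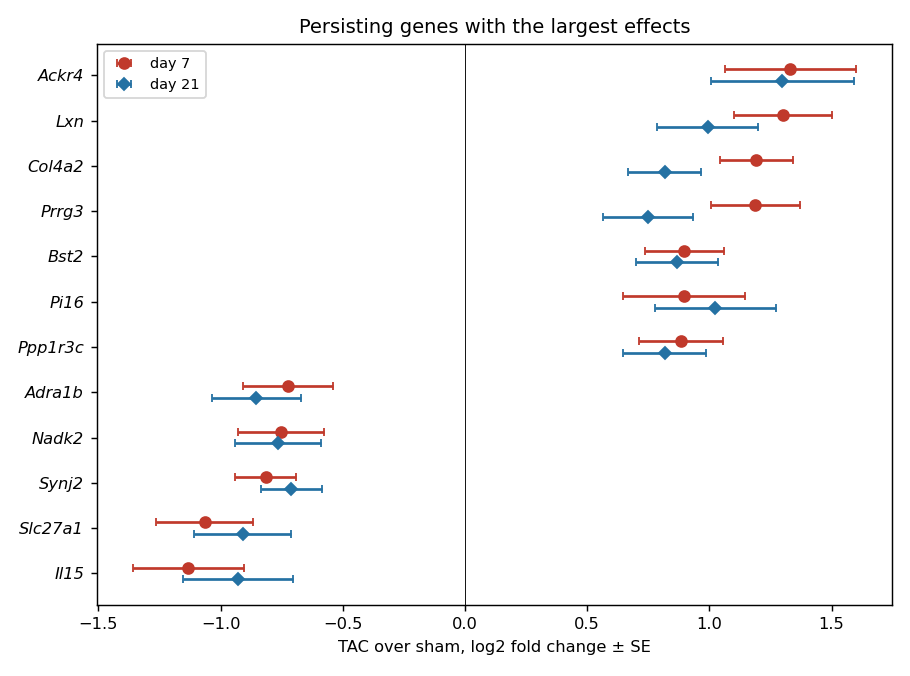
Log2 effect of TAC at day 7 and day 21 for 12 persisting genes, those with the largest smaller effect of both days among named genes of at least 3 log2 CPM, with bars of ± 1 SE. Ackr4 stands at 1.33 and 1.30 and Il15 at -1.13 and -0.93, and the bars of both days overlap in every gene but Col4a2 and Prrg3.

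The sham hearts differed between the days in 4 genes, or 0.029%. Adam19, Arntl and Trp53i11 rose and Lrat fell. Arntl, a core activator of the circadian clock, was at 0.865 to 2.31 CPM in sham and 1.58 to 4.58 CPM in TAC at day 7, and at 8.65 to 13.3 CPM in sham and 9.16 to 16.5 CPM in TAC at day 21. It rose in sham by 2.81 (adjusted p = 0.00154) and in TAC by 2.21 (adjusted p = 0.00202), so that its difference was -0.60 ± 0.50 (adjusted p = 0.668). Nr1d1, a clock repressor, was at 134 to 173 CPM in TAC hearts of day 7, below the 212 to 251 CPM of sham. At day 21 it was at 239 to 330.1 CPM in TAC and 266 to 285 CPM in sham. The TAC hearts rose by 0.79 (adjusted p = 0.00202), and the difference was 0.51 ± 0.16 (adjusted p = 0.233). The time of day of harvest is not given in the labels, and its part in these values was not tested. Lrat, which esterifies retinol, fell in sham by 3.02 and in TAC by 1.79 (adjusted p = 0.00322 and 0.031), with a difference of 1.23 ± 0.64 (adjusted p = 0.478).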

How the data were processed

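RNA of left ventricles was sequenced, with NuGEN Ovation libraries of total RNA per the labels' protocols. The authors deposited raw read counts per gene symbol (24015 genes) and RPKM values (reads per kilobase, scaled to the library). TopHat, DESeq and the build hg19, a human build, are named without versions per the submitters' processing notes. No source used here gives the mouse build, annotation or counter, so no coordinates come from the files.

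The counts were analysed with edgeR 4.0.16 (R 4.3.3). The filterByExpr function kept 13816 genes, libraries were scaled by TMM, and a quasi-likelihood model with 8 group means used all 24 libraries, with 16 residual degrees of freedom. The contrasts were TAC against sham at days 7 and 21, their difference, and day 21 against day 7 in TAC and in sham hearts. Benjamini-Hochberg adjustment ran over all genes. The SE is the size of the log2 fold change divided by the square root of F. The biological coefficient of variation was 0.146.

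Alternatives were RLE scaling, no filter, a stricter filter (1 CPM in 12 libraries), DESeq2 1.42.0, voom of limma 3.58.1, limma on log2(RPKM + 0.5), only the 12 libraries, a replicate block, Myl7 as a covariate, and each of the 12 libraries left out. Leaving out the libraries over 30 CPM of Myl7 (4, with 2 sham libraries of day 2), and the TAC libraries of days 7 and 21 with the smallest slope, was chosen after seeing the data. The atrial genes other than Myl7 were not used in that choice.

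Named genes were those called in the difference, 13 core genes (such as Nppa and Mki67), up to 3 called members per list, the 12 persisting genes with the largest smaller effect of both days at a log2 CPM of at least 3, and genes called in sham hearts. Gene models without a name (such as those with Rik symbols) were passed over. Mastl lies under a log2 CPM of 3. Members of lists called in TAC hearts or with an unadjusted p under 0.05 in the difference, the Hist symbols and Hist2h2be were added after their values were seen. The genes and lists were chosen with earlier results of these data known.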

Additional observations from a re-analysis of the deposited data

Results flagged for a closer look

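The 9 genes whose TAC effect differed between day 7 and day 21 by edgeR's test of the difference itself are those a reader may want to look at again. The effect was higher at day 21 by 1.63 in Lrrc17, 1.94 in Cxcl14, 0.83 in Lmcd1 and 0.56 in Rab3ip, on the log2 scale. The differences were -3.19 in Mastl, -2.10 in Mest, -1.09 in Hist3h2a, -1.09 in Adam19 and -0.76 in Arhgap18, lower at day 21. In Adam19 the sham hearts rose between the days, by 1.03.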

How the results depend on the processing

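Most differences of single genes kept their sign. Over 23 alternatives and the genes named, 1845 values of 2253 kept their direction and their call or lack of one. Of the rest, 384 lost the call, 7 gained it and 17 had the opposite sign. The values also include effects at day 21 and changes in TAC or sham hearts. Since uncalled values that stayed uncalled count as kept, the tally does not measure how well calls held. The differences called in the main fit were each called in 5 (Rab3ip) to 12 (Arhgap18, Lmcd1 and Lrrc17) of the 23 alternatives. The opposite signs were in Nppa, Ankrd1, Acta1, Myh7 and Col1a1, none of which was called. Without 1 library, the difference of Nppa was -0.07 (sham replicate 2 of day 7), -0.24 and -0.09 (TAC replicates 2 and 3 of day 7), -0.06 and -0.15 (sham replicates 1 and 3 of day 21) and -0.49 (TAC replicate 3 of day 21), and at most 0.71 (without TAC replicate 1 of day 7). That of Ankrd1 was -0.04 without TAC replicate 2 of day 7, -0.47 without TAC replicate 3 and 0.40 without TAC replicate 2 of day 21, -0.079 by voom, -0.0998 on RPKM and -0.0027 with the replicate block. Acta1 had -0.10 without TAC replicate 1 and 0.62 without TAC replicate 2 of day 21, and -0.13 without the libraries over 30 CPM of Myl7. Myh7 had 0.26 with Myl7 as a covariate, 0.28 without those libraries and -2.19 without TAC replicate 3 of day 21, and Col1a1 had 0.0128 without TAC replicate 1 of day 7, -1.45 without TAC replicate 3 of day 21 and 0.18 without those libraries. Over the 23 alternatives the difference reached 1.16 in Nppa and 0.92 in Acta1, and neither gene was called in any of them. The cause of these shifts was not tested.

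Counts of called genes moved more. DESeq2 called 24 higher and 48 lower in the difference, 426 genes at day 21, 67 faded, 208 persisting and 29 in sham hearts. A faded gene was called at day 7 and, with the opposite sign, in the difference, so effects that turned past 0 are included. Voom gave 2 higher, 1 lower, 87 at day 21 and 2 faded. RPKM gave 10 lower and 551 in TAC hearts. The 12 libraries alone gave 39 lower, 44 faded, 116 persisting and 10 in sham hearts. Myl7 as a covariate gave 0 higher, 0 lower and 0 faded by edgeR, with 1106 genes at an unadjusted p under 0.05, and 1059 at day 21 and 504 persisting. Without the libraries over 30 CPM of Myl7 there were 1 higher, 0 lower (981 genes at an unadjusted p under 0.05), 892 at day 7, 3 at day 21, 1 faded, 1 persisting, 172 in TAC and 2 in sham hearts. Without TAC replicate 2 of both days there were 2 higher, 1 lower, 864 at day 21, 2 faded, 459 persisting and 119 in TAC hearts. Leaving out 1 library gave 0 to 4 higher, 0 to 13 lower, 1270 to 4132 at day 7, 7 to 575 at day 21, 0 to 15 faded, 2 to 260 persisting, 54 to 609 in TAC and 2 to 6 in sham hearts. The main counts were 8 faded and 69 persisting.

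The labels do not say whether the replicate numbers pair the samples. The deviations of same-numbered sham and TAC libraries correlated at -0.151 to 0.0465 across genes. With 3 libraries per group, such correlations cannot show whether samples were paired. With the replicate block 10 genes were called in the difference, 8 of them among the 9. Between replicates the chi-square of the counts per degree of freedom was 3.65 to 62.1, where counting error alone gives about 1.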
